A study of Mus musculus with 9 samples.

Results

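C1q/TNF-related proteins (CTRPs) are secreted relatives of adiponectin. The 6 genes described here are C1qtnf1, C1qtnf2, C1qtnf3, C1qtnf5, C1qtnf6 and C1qtnf7, and all of their probe sets on the array were taken by gene symbol. The family was selected on measured signals of these arrays, among which C1qtnf3 showed the largest increase in the Suv420h1-null line. Of the 6 genes, 5 had probe sets of their own (7 probe sets), among 18193 genes named by such probe sets, and the only probe set for C1qtnf5 also carries the symbol Mfrp and could not be assigned to either gene.

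Each CTRP has a collagen-like stretch followed by a globular C1q domain, and the chains assemble into trimers and larger forms before they leave the cell. They act outside the cell, on metabolism, blood vessels, cartilage and complement. Fibroblasts and the stromal cells of fat are among their sources. C1qtnf3 (CTRP3, also named CORS26 and cartducin) is made by cartilage and fat, C1qtnf1 (CTRP1) by stromal and vascular cells, and C1qtnf6 (CTRP6) restrains the alternative complement pathway in mice. C1qtnf5 (CTRP5) is produced with Mfrp from a shared transcript in the retinal pigment epithelium, and C1qtnf2 and C1qtnf7 are less studied relatives with metabolic roles.

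RNA was measured on 9 Affymetrix mouse arrays from 2 lines of spontaneously immortalised embryonic fibroblasts, both taken from E13.5 mouse embryos. The Suv420h1-null line, which lacks a histone H4 methyltransferase, was measured with Suv420h1-GFP added back (reconstituted, 1 array), and without add-back (null, 2 arrays, of which 1 expressed GFP). The wild-type line expressed PREX2 ending at a stop codon (truncated PREX2, 3 arrays: K278*, E824* and Q1430*), full-length PREX2 (1 array), or a control vector (2 arrays: GFP and LacZ). Constructs entered the wild-type cells by lentivirus. PREX2 is an exchange factor that activates the GTPase Rac. Each genotype is 1 line, so genotype and line cannot be told apart, and no construct was repeated within a group. The labels do not state separate cultures for the arrays of a group, so a p-value here reflects how far these arrays scatter, which may be technical.

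The arrays were alike in scale, with a median signal between 56.3 and 68.7. The wild-type GFP array stood apart: it differed by more than 2-fold from the LacZ array at 6.82% of 19090 probe sets, whereas the null arrays differed from each other at 0.424%. Of 4 bright probe sets of the targeted gene (Kmt5b), 1 read 150.3 on the reconstituted array, 8.85 and 17.3 on the null arrays and 117.9 to 182.4 in the wild-type line. At the other 3, the null arrays stayed between 79.4 and 536.1, and the exons these probe sets match were not looked up. Of 16 fibroblast marker genes 15 were bright, that is, had a mean signal of at least 100, with summed signals of 155519 to 172231 in the null line and 165128 to 237332 in the wild-type line. Thy1, a surface glycoprotein of fibroblasts, was bright only in the wild-type line. It read 6.90 on the reconstituted array, 11.2 and 27.3 on the null arrays, and 1097 to 3641 in the wild-type line.

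The start regions of the gene with the largest line difference and of a member that was bright in both lines are shown for comparison. The sequences are RefSeq windows of build GRCm38.p6 from 250 bases before to 50 bases after a transcript start. Capitals mark matches, on either strand, to 4 motifs that do not overlap here. They are the TATA box, spelled TATAAA, the CCAAT box, the AP-1 motif, spelled TGANTCA, and the Sp1 motif, spelled GGGCGG. The C1qtnf3 window is at chr15:10952082-10952381, plus strand, and the C1qtnf6 window at chr15:78529602-78529901, minus strand.
C1qtnf3: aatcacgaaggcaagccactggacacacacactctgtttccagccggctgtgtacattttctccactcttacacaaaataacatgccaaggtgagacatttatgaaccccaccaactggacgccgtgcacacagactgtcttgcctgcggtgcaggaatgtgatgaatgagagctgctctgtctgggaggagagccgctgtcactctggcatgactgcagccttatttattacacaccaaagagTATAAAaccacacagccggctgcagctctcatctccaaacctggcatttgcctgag
C1qtnf6: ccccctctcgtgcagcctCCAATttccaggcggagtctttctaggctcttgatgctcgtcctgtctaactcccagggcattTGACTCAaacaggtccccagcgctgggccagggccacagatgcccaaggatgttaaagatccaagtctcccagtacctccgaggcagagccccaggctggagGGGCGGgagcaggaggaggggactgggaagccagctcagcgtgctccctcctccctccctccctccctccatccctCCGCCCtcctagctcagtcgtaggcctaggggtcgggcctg

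In this window C1qtnf3 holds 1 TATAAA, whose first base is at position -6 from the start, and none of the other 3 motifs. TATAAA occurs in 13.6% of the 32851 windows of the table. C1qtnf6 holds a CCAAT box at -232, the AP-1 motif at -169, and the Sp1 motif at -67 and, on the other strand, at 10. The CCAAT box occurs in 37.4% of windows, the AP-1 motif in 7.8% and the Sp1 motif in 35.7%. The C1qtnf3 window has 7 CpG dinucleotides, the median of all windows, and that of C1qtnf6 has 10. Windows were held for 5 of the 6 genes, and those of C1qtnf2, C1qtnf5 and C1qtnf7 held no TATAAA. These matches describe the letters of the windows and were not set against binding data.

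C1qtnf3 was bright on all null-line arrays and dim on all wild-type-line arrays. Its signal was 17532 on the reconstituted array, and 20601 and 18639 on the null arrays. In the wild-type line it was 80.8 with K278*, 60.1 with E824*, 65.8 with Q1430*, 60.9 with full-length PREX2, 40 with GFP and 53.3 with LacZ. The 2 lines did not overlap, as at 21.4% of tested probe sets with the null line above, and every wild-type-line signal lay near the median signal of an array, so a transcript in those cells could not be told from background. The mean was 18924 ± 1550 in the null line (SD, n = 3) and the 6 wild-type-line signals had a mean of 60.1.

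**Figure D1:**
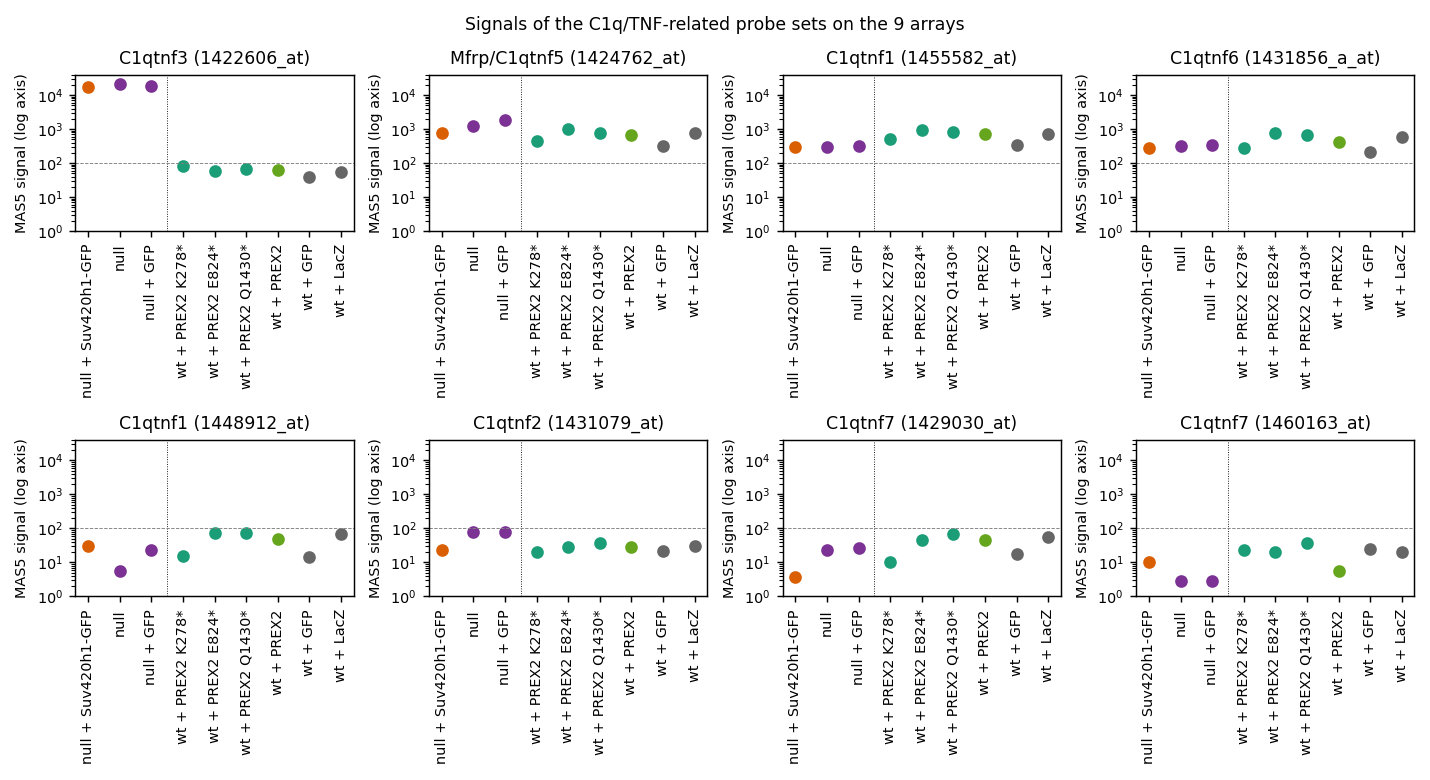
MAS5 signal (log axis) of the 8 probe sets on each of 9 arrays, 1 point an array, coloured by group; the dotted line separates null-line arrays (left) from wild-type-line arrays (right), and the dashed line marks a signal of 100. C1qtnf3 sits at 17532 or above on the null-line arrays and below 100 on the others, while C1qtnf1 and C1qtnf6 are between 209.9 and 917.5 throughout at their bright probe sets.

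The difference that led to the choice of C1qtnf3 is given as a description without a test. Null minus control vector was 8.10 on the scale log2(signal + 25) (SE 0.173, 2 against 2 arrays). No fold is given, because the control-vector signals were not above background. Of the 19090 probe sets with a mean signal of at least 100, 6.85% were more than 1 log2 unit higher in the null arrays, and 4.19% more than 1 lower. The size depends on the offset, since the control-vector signals were near it: 8.58 with an offset of 5 and 7.07 with 100.

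The lines were also compared on the reconstituted array against the 4 PREX2 arrays. These differ in add-back and PREX2 too, which cannot be told apart from line. For C1qtnf3 the difference was 7.58 (SE 0.194, 1 against 4 arrays), again a description without a test, since its increase in the null line led to its choice. In this comparison, with limma and Benjamini-Hochberg adjustment over 19090 probe sets, 16.8% of all probe sets passed, 9% higher and 7.83% lower, with a median difference of 0.02. C1qtnf3 passed the filter on low signals only through the null-line arrays, having signals under 100 elsewhere. In bulk RNA, fewer expressing cells and less RNA per cell cannot be told apart.

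Adding Suv420h1-GFP back to the null line left C1qtnf3 near its level without it. The reconstituted array was lower than the 2 null arrays by 0.16 (log2 difference -0.16, SE 0.212, 1 against 2 arrays), a description without a test. These null arrays were part of the difference that led to the choice of C1qtnf3, which favours a fall on reconstitution. The standard error exceeded the difference. Of 19090 probe sets 0 passed in this comparison with limma, and 621 had an unadjusted p below 0.05. Having 1 reconstituted array limits what this comparison could detect.

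PREX2 constructs gave small differences of C1qtnf3 at near-background signals. No test is given for C1qtnf3 here, since it passed the filter on low signals only through the null-line arrays. Truncated PREX2 against control vector differed by 0.39 (SE 0.158, 3 against 2 arrays). The signals were 60.1 to 80.8 against 40 and 53.3, and how many probe sets share such an order was not counted. The control arrays were also part of the difference that led to the choice of C1qtnf3. Full-length PREX2 against control vector differed by 0.27 (SE 0.212), and truncated against full-length by 0.12 (SE 0.2). The first and second of these comparisons share the control arrays. Over all probe sets, limma called 1 for the truncated forms (0.00524%), and 0 for full-length PREX2, where 269 had an unadjusted p below 0.05. Truncated against full-length also gave 0 in limma, with 241 at an unadjusted p below 0.05.

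C1qtnf1, bright in both lines, was lower on all null-line arrays than on any wild-type-line array. At its bright probe set it read 305.7 on the reconstituted array, and 291.1 and 327.6 on the null arrays. In the wild-type line it read 523.5 with K278*, 917.5 with E824*, 796.1 with Q1430*, 733.8 with full-length PREX2, 330.9 with GFP and 717.0 with LacZ. The GFP array lay just above the higher null array, and 19.1% of tested probe sets had all null-line arrays below all wild-type-line arrays.

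C1qtnf1 did not pass between the reconstituted and PREX2 arrays. The reconstituted array was lower than the PREX2 arrays by 1.19 (log2 difference -1.19, SE 0.416, 1 against 4 arrays, limma adjusted p = 0.0942). With the wild-type GFP and K278* arrays both left out of the fit, a choice made after seeing the data, the difference was -1.34. Those arrays had the lowest C1qtnf1 signals of the wild-type line. Null minus control vector was -0.62 (SE 0.372), a description, and -1.15 without the GFP array but -0.09 without the LacZ array. A second, dim probe set read 29.4 on the reconstituted array, 5.61 and 23.1 on the null arrays, and 14.4 to 73.3 in the wild-type line, where the lines overlapped.

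C1qtnf6 overlapped between the lines. Its probe set read 278.8 on the reconstituted array, and 318.5 and 332.2 on the null arrays. In the wild-type line it read 275.6 with K278*, 742.2 with E824*, 683.7 with Q1430*, 412.6 with full-length PREX2, 209.9 with GFP and 590.7 with LacZ. The null-line arrays lay close together, inside the wider range of the wild-type-line arrays. The reconstituted array was lower than the PREX2 arrays by 0.77 (log2 difference -0.77, SE 0.612, limma adjusted p = 0.431). With the wild-type GFP and K278* arrays both left out, a choice made after seeing the data, the difference was -1.03. Those arrays had the lowest C1qtnf6 signals of the wild-type line. Null minus control vector was -0.12 (SE 0.548), with the sign turned to 0.58 without the LacZ array.

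**Figure D2:**
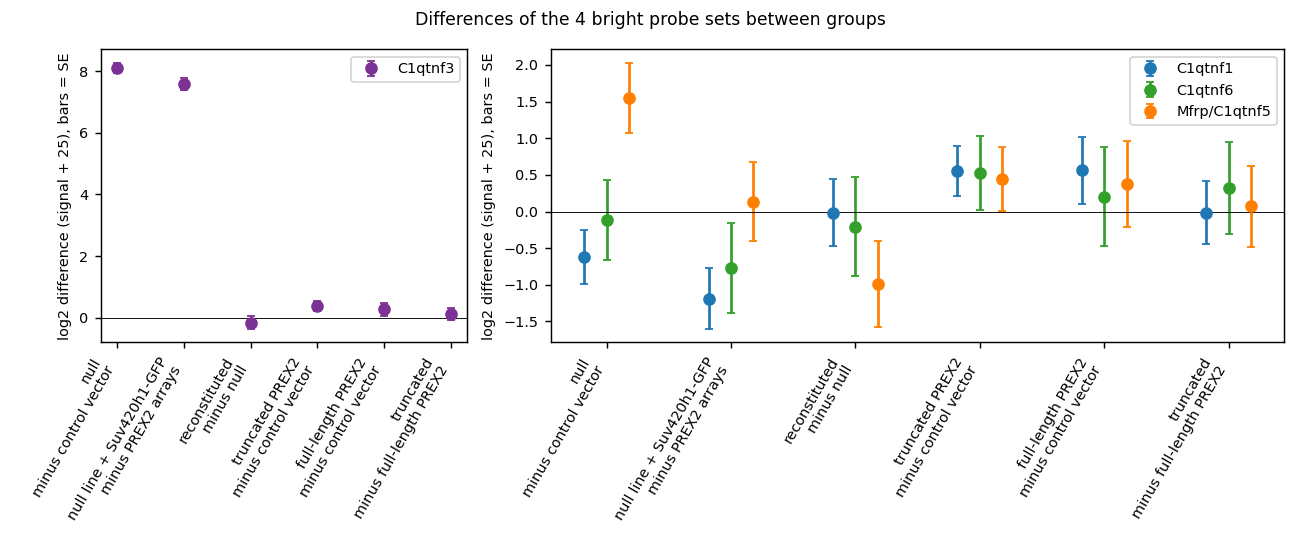
Log2 differences on the scale log2(signal + 25) with SE bars for the 4 probe sets with a mean signal of at least 100, in 6 group comparisons; C1qtnf3 is on its own axis at left. C1qtnf3 stands at 8.10 and 7.58 in the 2 comparisons between lines and within 0.39 of 0 in the other comparisons, and the other 3 probe sets stay between -1.19 and 1.55.

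The probe set shared by Mfrp and C1qtnf5, which cannot be credited to either gene, was brightest on the null arrays. It read 749.5 on the reconstituted array, and 1212 and 1884 on the null arrays. In the wild-type line it read 446.7 with K278*, 971.9 with E824*, 749.1 with Q1430*, 654.7 with full-length PREX2, 314.7 with GFP and 784.2 with LacZ. Both null arrays lay above the other 7, a pattern shown by 9.38% of tested probe sets, and the reconstituted array fell inside the wild-type-line range. The difference on reconstitution was -0.99 (SE 0.585, 1 against 2 arrays) and did not pass (limma adjusted p = 1), but passed when only those 3 arrays were fitted (adjusted p = 0.0382), as did 233 of 19090 probe sets. Null minus control vector was 1.55 (SE 0.478), which was 0.93 without the GFP control array.

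C1qtnf2 showed the same order of arrays at signals too dim for the test. Its probe set read 23.2 on the reconstituted array, against 79.6 and 77.2 on the null arrays, and 20.5 to 38.1 on the 6 wild-type-line arrays. The null arrays did not overlap with the other 7, which 7.23% of all 45037 probe sets also showed. With no filter on signal the difference on reconstitution was -1.10 (SE 0.327, limma adjusted p = 1). C1qtnf7 was dim everywhere. One probe set read 3.84 on the reconstituted array, 22.7 and 27.2 on the null arrays, and 10.5 to 67.2 in the wild-type line. The other read 10.2 on the reconstituted array, 2.93 and 2.90 on the null arrays, and 5.51 to 37.8 in the wild-type line. No ordering of groups is given for signals at this level.

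Within the wild-type line, C1qtnf1, C1qtnf6 and the Mfrp/C1qtnf5 probe set followed the same arrays. The GFP array was lowest and K278* next lowest at all 3, and also at the dim C1qtnf1 probe set; 17.9% of tested probe sets and 10.5% of all probe sets showed that order. Between the control vectors, the LacZ signal was 2.17 times the GFP signal for C1qtnf1, 2.81 times for C1qtnf6 and 2.49 times for Mfrp/C1qtnf5, each more than 2 times, which 6.44% of tested probe sets reached. The fibroblast marker list was also lower on the GFP array, with a mean log2 level of 11.7 against 12.2 on K278*, and from 12.5 to 12.9 with the remaining constructs, and its part in these values was not tested.

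Besides C1qtnf3, for which no test is given there, no member probe set passed in the PREX2 comparisons. For C1qtnf1, truncated PREX2 against control vector differed by 0.55 (SE 0.340), and full-length PREX2 against control vector by 0.56 (SE 0.456). Without the GFP control array these were 0.02 and 0.03, and without the LacZ array 1.08 and 1.09. For C1qtnf6 these differences were 0.52 (SE 0.500) and 0.20 (SE 0.671), and both turned negative without the GFP control array, at -0.17 and -0.49. For Mfrp/C1qtnf5 they were 0.45 (SE 0.436) and 0.38 (SE 0.585), and became -0.18 and -0.25 without that array. Adjusted p-values in limma were 0.844 for the truncated forms and 1 for full-length PREX2. Truncated and full-length PREX2 differed by -0.01 for C1qtnf1, 0.32 for C1qtnf6 and 0.07 for Mfrp/C1qtnf5, with an adjusted p of 1 in limma.

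Each bright member was set against 17361 or 17362 other singly named probe sets by the root mean square difference between centred log2(signal + 25) profiles over the 9 arrays. Closest to C1qtnf3 were the cell-cycle inhibitor Cdkn2a (0.53), the homeobox gene Hoxc8 (0.62) and the prelamin protease Zmpste24 (0.76), which read 2257 to 4308 on the null-line arrays and at most 18.2 in the wild-type line. Closest to C1qtnf1 were Cyhr1 (0.10), the signalling adaptor Tifa (0.10) and the mesenchymal transcription factor Prrx1 (0.11), a member of the fibroblast list. Prrx1 read 1527 on the reconstituted array, 1727 and 1899 on the null arrays, and 3322, 4897, 4631, 4077, 1865 and 4446 with K278*, E824*, Q1430*, full-length PREX2, GFP and LacZ. Closest to C1qtnf6 were Epb41l4b (0.12), Cyp2j6 (0.13) and Gpcpd1 (0.14), and to Mfrp/C1qtnf5 the growth factor Tgfb3 (0.18), the complement regulator Cd59a (0.19) and the proteoglycan Gpc4 (0.19).

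**Figure D3:**
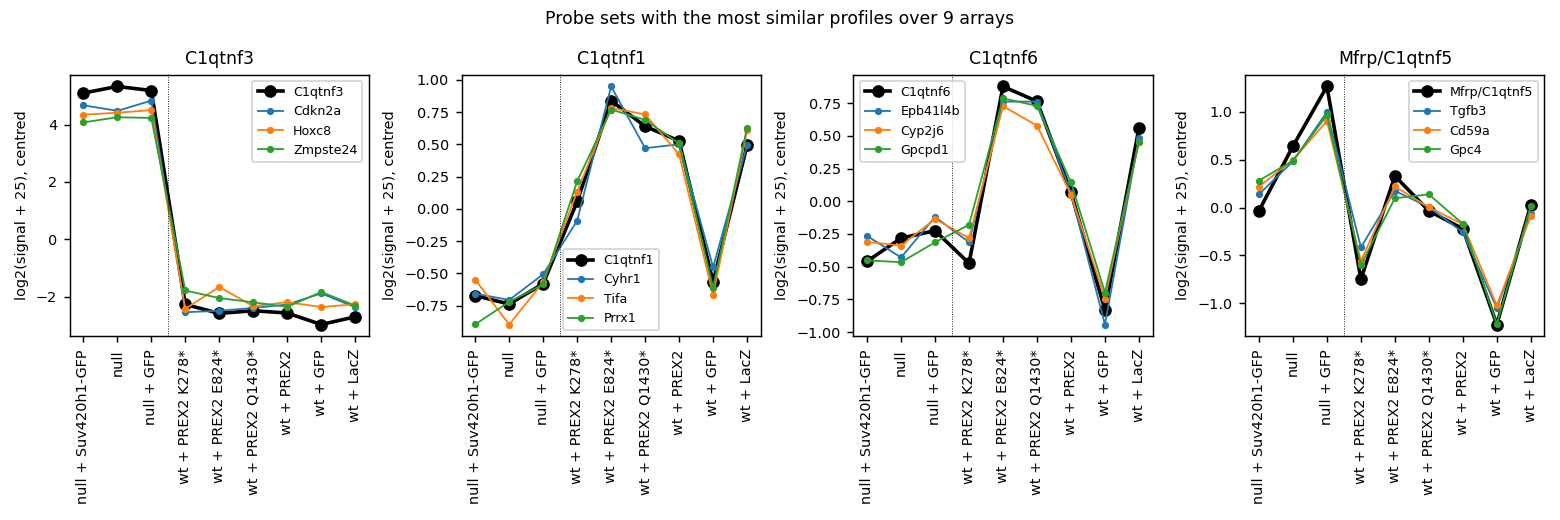
Centred log2(signal + 25) of each bright member (black) and its 3 closest probe sets (coloured) on 9 arrays, with null-line arrays left of the dotted line. C1qtnf3 and its closest probe sets step between the lines, whereas those of C1qtnf1, C1qtnf6 and Mfrp/C1qtnf5 dip together on the wild-type GFP array.

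The gene next to C1qtnf3 on chromosome 15, Amacr, was also higher in the null line. Amacr encodes a racemase that prepares branched-chain fatty acids and bile acid intermediates for oxidation. It read 1919.5 on the reconstituted array, 1748 and 1845 on the null arrays, and 243.6 to 314.4 in the wild-type line, with no overlap between the lines. On the reconstituted and PREX2 arrays it was higher by 2.61 (SE 0.151), and null minus control vector was 2.71 (SE 0.135). Amacr was named for the latter difference, and all these arrays come from the same 2 lines, so no p-value is given for it. Of 16 genes listed around C1qtnf3, by RefSeq order in GRCm38.p6, 11 were bright enough to test. Judged by the brightest probe set of each gene, on the reconstituted and PREX2 arrays Amacr alone rose and 5 fell: Dnajc21 (-0.75), Rad1 (-0.73), Tars (-0.78), Npr3 (-1.92) and Sub1 (-0.66). These 6 of 11 stand beside 16.8% over all probe sets, and the median of the 11 was -0.42 against 0.02. A second bright probe set of Sub1 went the other way, and no test is given for it. It read 854.4 on the reconstituted array and 478.4 with full-length PREX2, with means of 685.2 on the null and 476.4 on the truncated PREX2 arrays. Rai14, an actin-binding protein gene on the other side of C1qtnf3, differed by 0.63 (SE 0.282, limma adjusted p = 0.172) at its brightest probe set, where the lines overlapped. Its other 3 probe sets, for which no test is given, were higher on every null-line array than on any wild-type-line array. One of them read 388.0 on the reconstituted array, 485.2 and 344.4 on the null arrays, and 168.6 to 299.5 in the wild-type line. The other two read 206.4 and 203.7 on the reconstituted array, 150.4 to 176.0 on the null arrays, and 4.15 to 81.2 in the wild-type line. The protease gene Adamts12 differed by 0.08 (SE 0.419, limma adjusted p = 0.921), although null minus control vector was 1.10 (SE 0.375).

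**Figure D4:**
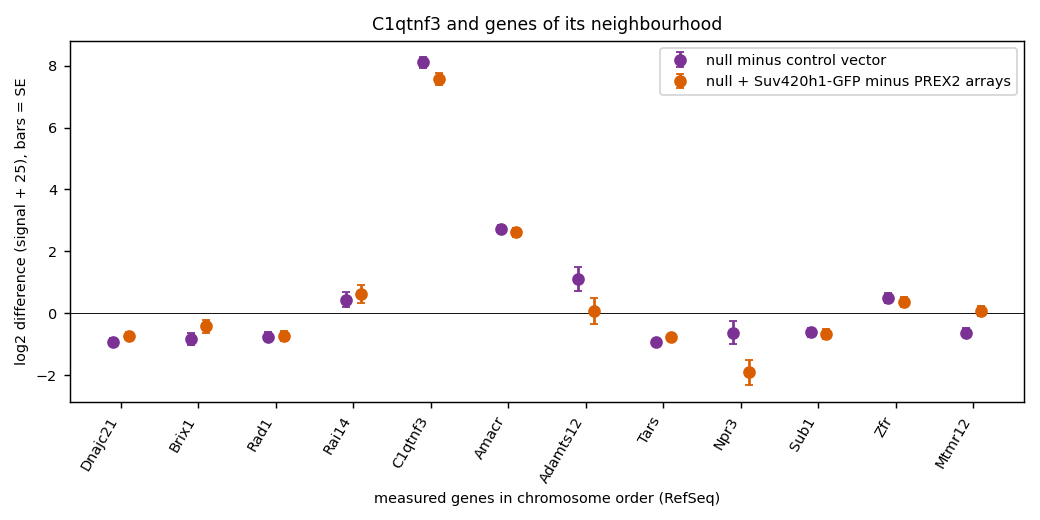
Log2 differences with SE bars for C1qtnf3 and the 11 measured genes listed around it, in chromosome order, for null minus control vector (purple, a description) and for the reconstituted array minus the PREX2 arrays (orange). C1qtnf3 is at 8.10 and 7.58, Amacr at 2.71 and 2.61, and Rai14, on the other side, at 0.44 and 0.63.

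Other genes that encode a C1q domain include collagens, emilins and adiponectin. Of 26 listed, 6 were bright enough to test, and on the reconstituted and PREX2 arrays 0 rose and 1 fell, beside 16.8% called over all probe sets. That was Emilin2, an elastic-fibre glycoprotein (log2 difference -1.69, SE 0.198). It read 492.3 on the reconstituted array and 1436 to 1987 on the PREX2 arrays. Emilin2 was named for its difference between null and control vector, so no p-value is given for it. The median of the 6 was -0.07, against 0.02 over all probe sets. Col8a1, a short-chain collagen with a C1q domain, read 2221 on the reconstituted array, 5944 and 8364 on the null arrays, and 2376 to 2879.5 in the wild-type line. As with C1qtnf2 and the Mfrp/C1qtnf5 probe set, both null arrays were above the other 7. The difference on reconstitution, -1.66 (SE 0.210), did not pass (limma adjusted p = 0.492), a call that changed when the reconstituted and null arrays were fitted alone. Col8a1 was named for its difference between null and control vector, so the same null arrays favour a fall on reconstitution. Caprin2, an RNA-binding protein gene, was higher by 1.05 (SE 0.327) in null than in control-vector arrays, and by 0.77 (SE 0.365, limma adjusted p = 0.194) on the reconstituted against the PREX2 arrays. Adiponectin itself (Adipoq) stayed at or below 27.5 on every array.

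Genes for candidate receptors and for secretion partners of the family were also listed. Of 15 genes, 9 were tested, and on the reconstituted and PREX2 arrays 1 rose and 1 fell, beside 16.8% over all probe sets. Lrp1, an endocytic receptor, rose by 1.03 (SE 0.150, limma adjusted p = 0.00487), with 2164 on the reconstituted array and 990.1 to 1121 on the PREX2 arrays. Ero1a, the oxidase that supports disulfide formation in secreted proteins, fell by 2.02 (SE 0.213). It read 739.3 on the reconstituted array and 2725 to 3308 on the PREX2 arrays. Ero1a was named for its difference between null and control vector, so no p-value is given for it. The adiponectin receptor genes Adipor1 and Adipor2 differed by 0.07 (SE 0.139) and 0.32 (SE 0.175), neither of which passed (adjusted p of 0.785 and 0.25).

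Since C1qtnf3 is known from cartilage and fat, markers of those cells are given beside it, with macrophage and endothelial markers. Of 16 chondrocyte genes 3 were tested, with summed signals of 2901 to 4409 in the null line and 599 to 767 in the wild-type line. Col11a1 and Col2a1, both fibrillar collagens of cartilage, passed the filter only through the null line and are given as signals without a test. At its brightest probe set Col11a1 read 1456 on the reconstituted array, 2240 and 3559.5 on the null arrays, and at most 32.8 in the wild-type line. Another Col11a1 probe set read 964.9 on the reconstituted array, with means of 1665 in the null line and 40.4 in the wild-type line. Col2a1 read 1034 on the reconstituted array, 384.0 and 411.6 on the null arrays, and at most 49.8 in the wild-type line. Sox9, the cartilage transcription factor, differed by -0.58 (SE 0.183, limma adjusted p = 0.0715), and the cartilage proteoglycan Acan stayed between 20.5 and 63.7 on all arrays. Of 12 adipocyte genes 4 were tested, with summed signals of 10427 to 13611 in the null line and 2943 to 11315 in the wild-type line. Pparg, the adipogenic nuclear receptor, likewise passed the filter only through the null line, with 608.5 on the reconstituted array, 286.0 and 326.6 on the null arrays, and 50.1 to 91.3 in the wild-type line. The lipid enzyme gene Dgat2 fell by 0.76 on the reconstituted against the PREX2 arrays (SE 0.192, limma adjusted p = 0.0369). Lpl, which made up most of the adipocyte sum, differed by 0.56 (SE 0.747) there and did not pass. Fabp4, the remaining tested gene, differed by -0.33 (SE 0.214) there and did not pass. At its brightest probe set Fabp4 had means of 99.9 on the null and 365.4 on the control-vector arrays, opposite in direction to Pparg. Of 10 macrophage genes 3 were tested, with summed signals of 597 to 642 in the null line and 1010 to 1235 in the wild-type line. Csf1r and Cd14 fell by 1.18 and 0.98 on the reconstituted against the PREX2 arrays (limma adjusted p = 0.0135 and 0.0372), and the leukocyte gene Ptprc stayed at or below 25.9 on all arrays. Cd68, the remaining tested macrophage gene, differed by 0.45 (SE 0.233) there and did not pass. Of 10 endothelial genes 3 were tested, with summed signals of 3745 to 6245 in the null line and 3863 to 5650 in the wild-type line. Eng, a co-receptor for TGF-beta, rose by 1.98 (SE 0.232, limma adjusted p = 0.00205), and the endothelial gene Pecam1 stayed at or below 32.7. Tek and Cd34, the other tested endothelial genes, went the other way there, at -2.42 (SE 0.85) and -0.54 (SE 0.177), and did not pass. The part of these cell programmes in the C1qtnf3 signal was not tested.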

How the data were processed

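The deposited intensity of a probe set is linear and was made with MAS5, as named in the submitters' processing notes by the authors. Version and scaling target were not stated there, and every array had a mean of 500 after 2% was trimmed from each end. Of 45101 probe sets, 64 controls were left out. Gene names came from the platform annotation (34945 probe sets with 1 symbol, 932 with several and 9160 with none), and 34741 matched RefSeq GRCm38.p6.

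Signals were transformed as log2(signal + 25), which understates changes of dim probe sets. The 19090 probe sets with a mean of at least 100 entered 1 fit of 5 group means in limma 3.58.1 (R 4.3.3), with an intensity trend, 4 residual degrees of freedom and Benjamini-Hochberg adjustment (threshold 0.05, two-sided). A lone array of a group was taken to have the spread of the remaining groups. Where a listed gene had several probe sets, the brightest was used. The fit was tested on simulated data with 50 changed probe sets a run. Of 2-fold changes it recovered 14 for truncated PREX2 against control vector, and 0 in each of the other tested comparisons. Of 4-fold changes it recovered 38 for reconstituted against PREX2 arrays and up to 49 in the others. Only 50 probe sets changed in a run, whereas 3214 passed between the reconstituted and PREX2 arrays. Adjustment was thus stricter in the simulation, and its recovery does not carry over to that comparison. A difference near 2-fold that did not pass is not shown to be absent.

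Named were all members; from the lists of C1q-domain genes, receptors and neighbours, genes beyond 1 log2 unit between null and control vector (up to 4 a list); and the 3 closest profiles of each bright member. Other listed genes and cell type markers were named after their values were seen. Members and lists were chosen with earlier results of these data known. Alternatives were other offsets (5, 100), a minimum of 200 or none, quantile scaling, no trend, the compared groups alone, the PREX2 arrays as 1 group, and each array of a repeated group left out. Leaving out the wild-type GFP and K278* arrays together was chosen after seeing the data.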

Additional observations from a re-analysis of the deposited data

How the results depend on the processing

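Outside the counts over all probe sets, 412 values of 37 results were recomputed, of which 383 kept direction and side of the threshold, or moved by less than the standard error of the fit. For C1qtnf3, null minus control vector was 8.58 with an offset of 5, 7.07 with 100, and 7.97 to 8.24 with 1 array left out. Between the reconstituted and PREX2 arrays the C1qtnf3 difference ranged over 6.72 to 7.94, and the Amacr difference over 2.36 to 2.69. With the wild-type GFP and K278* arrays both left out, chosen after seeing the data, that difference was -1.34 for C1qtnf1 and -1.03 for C1qtnf6. For Caprin2 it was 0.75. Both arrays were the lowest of the wild-type line for C1qtnf1 and C1qtnf6. With only the compared arrays fitted, 1 member probe set passed on reconstitution in place of 0.

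Reversed signs, in differences that did not pass, were as follows. Without K278*, with or without the GFP array, reconstituted minus PREX2 arrays was -0.058 for Mfrp/C1qtnf5 and -0.007 for Adamts12 (up to 0.301 and 0.152 with another array left out), and truncated minus full-length PREX2 was 0.213 for C1qtnf1 (-0.177 without E824*). Without E824*, truncated minus full-length was -0.17 for Mfrp/C1qtnf5, and 0.37 without K278*. Without the GFP null array, reconstitution was 0.065 for C1qtnf1, and -0.093 without the untransduced one. Without the GFP control array, truncated PREX2 minus control vector was -0.18 for Mfrp/C1qtnf5 and -0.17 for C1qtnf6, and full-length PREX2 minus control vector was -0.251 and -0.493, also with K278* left out. Without LacZ these were 1.072, 1.219, 1.001 and 0.897. Without LacZ, null minus control vector was 0.576 for C1qtnf6, and -0.814 without GFP. The cause was not tested.

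Over all probe sets, 3214 passed between the reconstituted and PREX2 arrays, 8425 without the GFP and K278* arrays, 2027 without E824* and 1723 without Q1430*. On reconstitution 0 passed, 1 after quantile normalization and 233 with the compared arrays alone. For truncated PREX2 against control vector 1 passed, 117 without LacZ and 3 without the GFP and K278* arrays, and 0 with an offset of 100, no filter, the compared groups alone, or the GFP control or any truncated array left out. For full-length PREX2 against control vector 3 passed without LacZ. No paired analysis was possible because the labels number no replicates. The small number of arrays, with 1 in a group in most comparisons, limits what could be called.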

Other observations

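Of family members outside the 6 genes, C1qtnf4 read at most 27.0 and C1qtnf9 at most 24.4 on any array, while C1qtnf12 was bright at 1 probe set. C1qtnf12, an insulin-sensitising adipokine in mice, had 4 probe sets, of which the brightest read 158.7 on the reconstituted array, 117.8 and 143.5 on the null arrays and 124.1 to 191.6 in the wild-type line. Its difference between the reconstituted and PREX2 arrays, 0.12 (SE 0.214), did not pass (limma adjusted p = 0.733). Phex, the only osteoblast marker bright enough to test of 10 listed, read 32.7 on the reconstituted array, 29.2 and 34.4 on the null arrays and 138.2 to 347.4 in the wild-type line. It passed the filter on low signals only through the wild-type line, so no test is given.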
